A study of Mus musculus with 6 samples.

Results

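Nonclassical monocytes (ncMo) of mouse cranial bone marrow were chosen by a rule on measured UMIs, and 407 of 37576 quality-controlled (QC) cells met it. A UMI (unique molecular identifier) marks 1 captured transcript molecule. QC cells had 500 to 5000 genes, more than 500 UMIs and under 25% of UMIs from mitochondrial genes. A QC cell was kept as ncMo when at least 2 of Ace, Cd300e and Ear2 had a UMI, Ly6c2 had under 3 UMIs, C1qa, C1qb and C1qc together had under 3 UMIs, and S100a8 and S100a9 together took under 2% of its UMIs. The cells came from wild-type C57BL/6 mice at 2 months (02m), 12 months (12m) and 18 months (18m), with no treatment. At each age 1 library was made from marrow of the sagittal suture and adjoining parietal bone (CBMA) and 1 from parietal bone far from the sutures (CBMD), with 6 to 8 mice, stated to be male, pooled per age. All cells had passed through collagenase and dispase digestion, red cell lysis and dead cell removal.

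Nonclassical monocytes are the Ly6C-low blood monocytes of the mouse. They patrol the inner wall of small vessels, depend on the nuclear receptor Nr4a1 and arise in large part from Ly6C-high classical monocytes (cMo), which leave the marrow through Ccr2. Their typical products are the angiotensin-converting enzyme Ace, the activating receptor Cd300e, the ribonuclease Ear2, the lipid-sensing nuclear receptor Pparg and the adhesion receptor Adgre4.

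Because each age and site was 1 library, no test across mice was possible and no p-value is given. Levels are UMIs summed over the ncMo of a library and scaled to CPM (UMIs of the gene for each 1000000 UMIs of the summed cells), and a ratio of 2 libraries carries an exact 95% Poisson interval that covers counting error only. The 2 sites of an age may hold marrow of the same mice, so they are not replicates of age. The ncMo of the 6 libraries held 202501 to 531609 UMIs in all, with a median of 4454 UMIs and 1890 genes per cell, against 9900 UMIs per cMo. A gene was called apart when its ratio was at least 1.5-fold and the 2 libraries together held at least 50 of its UMIs.

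The 12m libraries stood apart from the others. Xist, the RNA of the inactive X chromosome that marks female cells, had a UMI in 37.7% of CBMA_12m and 42.1% of CBMD_12m QC cells, against 0.128% to 0.181% in the other 4 libraries. Among ncMo it had a UMI in 51 of 78 cells of CBMA_12m and 52 of 86 of CBMD_12m, against 0 of 243 in the other libraries, which allows a share of up to 1.23%. This went against the stated male sex of the 12m pools, so the shares, the main list medians and selected genes are also given without the 12m cells that had an Xist UMI, although female cells without such a UMI remain. Other 12m values use all cells. The 12m ncMo also had the lowest median share of mitochondrial UMIs (1.56% and 1.80%, against 2.87% to 3.04%) and the least Gm42418, a transcript that overlaps ribosomal RNA (11449 and 14050 CPM, against 46523 to 104617 CPM), and the part of either in the results was not tested. At most 21 barcodes were shared by any pair of libraries, and none of them was an ncMo in both.

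The label held against genes outside the rule. Pparg had a UMI in 39.3% of ncMo, in 1.58% of cMo and in 0.264% of neutrophil-like cells, the QC cells with at least 2% of UMIs from S100a8 and S100a9. Adgre4 had one in 73.2% of ncMo, 7.73% of cMo and 0.811% of neutrophil-like cells. Cells of at least 2000 UMIs were also thinned to 2000, and the others left out. Pparg was then seen in 23.4% of 381 ncMo and Adgre4 in 52.8%, against 0.134% and 0.362% of neutrophil-like cells. A list of 22 ncMo markers outside the rule, Pparg and Adgre4 among them, was met by a median of 15 genes per cell, and 404 of 407 cells had at least 5 of them. The same count was not made in cMo, so it does not set ncMo apart from them. Of that list, Nr4a1 had a UMI in 52.0% of cMo and Cx3cr1 in 51.3%. Summed, the list was at 7279 to 13164 CPM in ncMo, against 1731 to 3454 CPM in cMo. Of the lists for other cells, 2 of 9 dendritic cell markers (Siglech among them), 4 of 8 T and NK cell markers (Cd3e among them), 1 of 8 B cell markers (Ms4a1) and 2 of 8 macrophage markers (Cd163 and Folr2) had no UMI in any ncMo. The summed macrophage list, which holds Apoe, was at 2657 to 5486 CPM in ncMo, against 377 to 1471 CPM in cMo. The dendritic cell list was at 6.12 to 183 CPM in ncMo, against 63.3 to 119 CPM in cMo, and the T and NK cell list at 0 to 33.9 CPM in ncMo, against 14.9 to 166 CPM in cMo. The B cell list was at 326 to 2660 CPM in ncMo, against 257 to 24259 CPM in cMo. What part other cells or their RNA have in these levels was not tested. In 13 cells more of 13 cMo markers than of the ncMo markers were detected.

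Of the genes that set the rule, Ace was detected in 388 of the 407 cells, Ear2 in 376 and Cd300e in 170. All 3 were seen in 120 cells and exactly 2 in 287, and 603 further QC cells that met the other limits had only 1. Ly6c2 had no UMI in 296 members, 1 UMI in 84 and 2 UMIs in 27. A further 105 QC cells met every other limit but had at least 3 Ly6c2 UMIs, with 3 UMIs in 12 and 4 in 13. By library they numbered 57, 6 and 6 at 02m, 12m and 18m of CBMA, and 28, 7 and 1 in CBMD. Most were thus 02m cells, and shares with them counted were not computed. The share of members without a Ly6c2 UMI was 59.3%, 73.1% and 73.5% at 02m, 12m and 18m of CBMA, with 45.9%, 82.6% and 89.8% in CBMD. Cd300e was detected in 23.7%, 46.2% and 52.0% of members in CBMA and in 21.6%, 44.2% and 46.9% in CBMD. The 02m members therefore lay nearer to the Ly6c2 limit, and some ratios changed their direction among the 120 cells with all 3 markers.

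The ncMo were set against the cMo of the same libraries. These cMo were 6341 QC cells with at least 3 Ly6c2 UMIs, UMIs of at least 2 of Ccr2, F13a1, Fn1, Vcan and Csf1r, no Siglech UMI, fewer than 2 of the ncMo marker genes and the same limits on C1q and S100 genes, and since UMIs chose both sets the levels are a description. Of 5381 genes measured, 419 were at least 1.5-fold higher in ncMo in all 6 libraries and 181 at least 1.5-fold lower. All 22 ncMo markers were higher in every library, 20 of them by at least 1.5-fold. Nr4a1, the factor on which these cells depend, ranged over the libraries from 415 to 2069 CPM in ncMo and from 37.9 to 686 CPM in cMo. The fractalkine receptor Cx3cr1 ranged from 395 to 842 CPM in ncMo and from 97.6 to 290 CPM in cMo. The integrin chain Itgal, part of LFA-1, ranged from 207 to 1068 CPM in ncMo and from 77.2 to 211 CPM in cMo, so a single ncMo library overlapped the highest cMo library.

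The widest gaps were in genes close to silent in cMo. Lilra5, a leukocyte immunoglobulin-like receptor, had 40.3 to 107 CPM in ncMo and at most 0.433 CPM in cMo. The scavenger receptor Cd36 had 88.9 to 604 CPM in ncMo and 0.716 to 5.62 CPM in cMo, and the fatty acid carrier Fabp4 had 237 to 618 CPM in ncMo and 1.43 to 8.21 CPM in cMo. Pparg had 74.1 to 171 CPM in ncMo and 1.05 to 5.93 CPM in cMo. The sphingosine-1-phosphate receptor S1pr5, through which monocytes and NK cells leave the marrow, had 93.8 to 165 CPM in ncMo and 1.16 to 5.17 CPM in cMo. Eno3, Adrb1, Tgfbr3, Hes1, Dnah12, Treml4, Fcgr4, Bcl2a1b, Adgre4 and Bcl2a1d completed the 15 genes with the largest least gap. The Fc receptor Fcgr4 reached 284 to 568 CPM in ncMo and 7.15 to 14.3 CPM in cMo.

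Several genes of the classical state were lower in ncMo. F13a1, a clotting factor chain of cMo, had 36.7 to 259 CPM in ncMo and 1370 to 2182 CPM in cMo. Fibronectin (Fn1) had 64.4 to 404 CPM in ncMo and 1387 to 2839 CPM in cMo. Top2a, a topoisomerase of dividing cells, had 9.88 to 64.7 CPM in ncMo and 259 to 425 CPM in cMo, and 14 G2/M genes together had 957 to 1524 CPM in ncMo and 4110 to 8764 CPM in cMo. Ccr2 was lower in all 6 libraries but not low, at 286 to 929 CPM in ncMo and 606 to 1471 CPM in cMo. Of the 13 cMo markers, 10 were lower in all 6 libraries, 6 of them by at least 1.5-fold, and the exceptions were Plac8 and Gda, each higher in 1 library, and Msrb1, higher in 5. F13a1, Fn1 and Vcan, among those 6, and Ccr2 were also used to choose the cMo. Their lower levels in ncMo are therefore no support for the label.

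**Figure D1:**
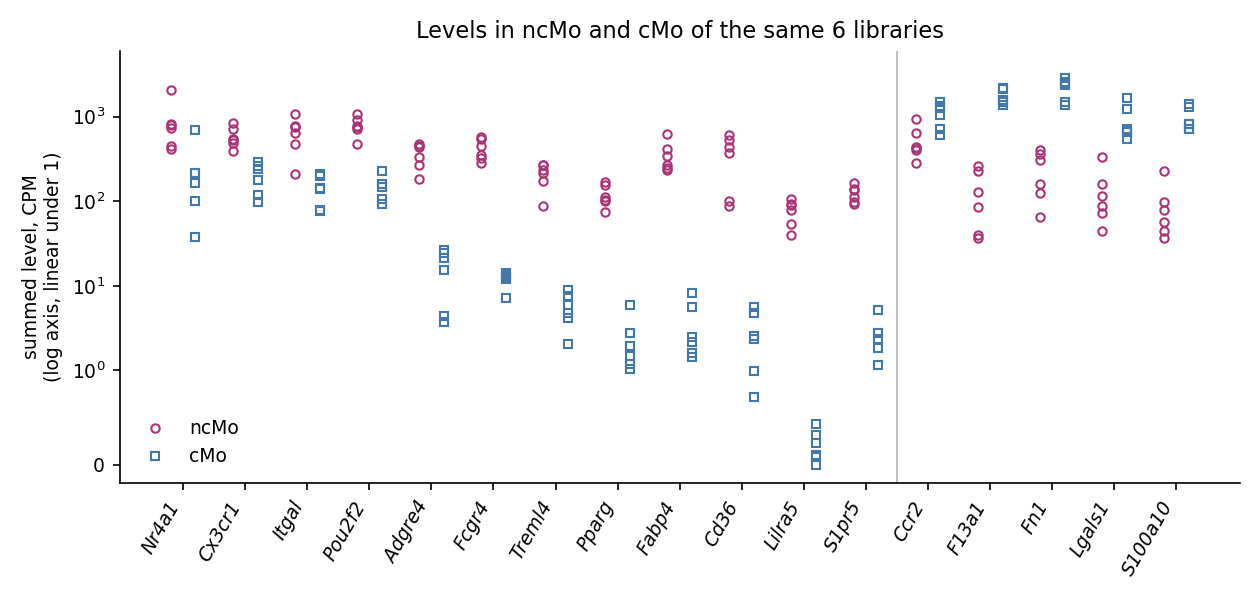
Summed level in CPM (log axis, linear under 1) of 12 genes higher in ncMo (left of the line) and 5 genes lower in ncMo (right of it), with 1 circle per library for ncMo and 1 square per library for cMo. For Cd36 the ncMo libraries lie between 88.9 and 604 CPM and the cMo libraries between 0.716 and 5.62 CPM.

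The share of ncMo among QC cells was highest at 12m in both sites. In CBMA it was 0.688% at 02m (59 of 8580 cells, exact binomial 95% interval 0.524% to 0.886%), 2.87% at 12m (78 of 2718, 2.27% to 3.57%) and 1.36% at 18m (98 of 7232, 1.10% to 1.65%). In CBMD it was 0.465% at 02m (37 of 7956, 0.328% to 0.640%), 1.93% at 12m (86 of 4464, 1.54% to 2.37%) and 0.740% at 18m (49 of 6626, 0.548% to 0.977%). None of the 3 intervals overlapped in CBMA, while in CBMD the 18m interval overlapped that of 02m. The share at 12m was 4.17 times that at 02m in CBMA (2.94 to 5.96) and 4.14 times in CBMD (2.79 to 6.27). Without the 12m cells that had an Xist UMI the ratios were 2.32 (1.41 to 3.72) and 2.83 (1.72 to 4.63). This filter removed more of the 12m ncMo (65.4% and 60.5%) than of the 12m QC cells (37.7% and 42.1%), which by itself lowers the 12m share. Whether sex or how readily Xist was detected underlies that gap was not tested.

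At 18m the share was 1.97 times that at 02m in CBMA (1.41 to 2.77) and 1.59 times in CBMD (1.02 to 2.51). A cell needs UMIs of 2 marker genes and under 3 Ly6c2 UMIs to be counted, and this contrast changed with depth. Thinning removes marker UMIs but also Ly6c2 UMIs under an unchanged limit, so it does not isolate marker detection. With every cell thinned to 1000 UMIs, the 18m share was 0.404% and the 02m share 0.376% in CBMA, and 0.198% and 0.191% in CBMD, so that the ratio was 1.07 in CBMA (0.627 to 1.83) and 1.03 in CBMD (0.453 to 2.33). At 2000 UMIs it was 1.45 (0.953 to 2.21) and 1.51 (0.858 to 2.67), and none of these 4 intervals left out 1. Nor did that of CBMD with no limit on S100a8 and S100a9, at 1.22 (0.819 to 1.83). Requiring all 3 markers gave 3.88 (1.93 to 8.46) in CBMA and 3.12 (1.04 to 11.2) in CBMD. Requiring no Ly6c2 UMI gave 2.44 (1.61 to 3.77) and 3.11 (1.74 to 5.80). No alternative raised the Ly6c2 limit itself, which alone held out 57 and 28 cells at 02m, against 6 and 1 at 18m. At 1000 UMIs the 12m shares stayed above those at 02m, at 1.23% and 0.376% in CBMA and 0.727% and 0.191% in CBMD. Against 12m, the 18m share was 0.472 times as high in CBMA (0.347 to 0.644) and 0.384 times in CBMD (0.265 to 0.551). Leaving out the 12m cells with an Xist UMI brought the ratio of 18m over 12m in CBMA to 0.850 (0.550 to 1.35). That filter removed ncMo at a higher rate than QC cells.

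The cMo followed another order. Their share was 27.3%, 9.60% and 11.3% at 02m, 12m and 18m of CBMA, with 22.5%, 7.26% and 12.2% in CBMD. There were 59, 78 and 98 ncMo beside 2339, 261 and 819 cMo in CBMA, with 37, 86 and 49 ncMo beside 1791, 324 and 807 cMo in CBMD. A share cannot tell more ncMo from fewer cells of other types.

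**Figure D2:**
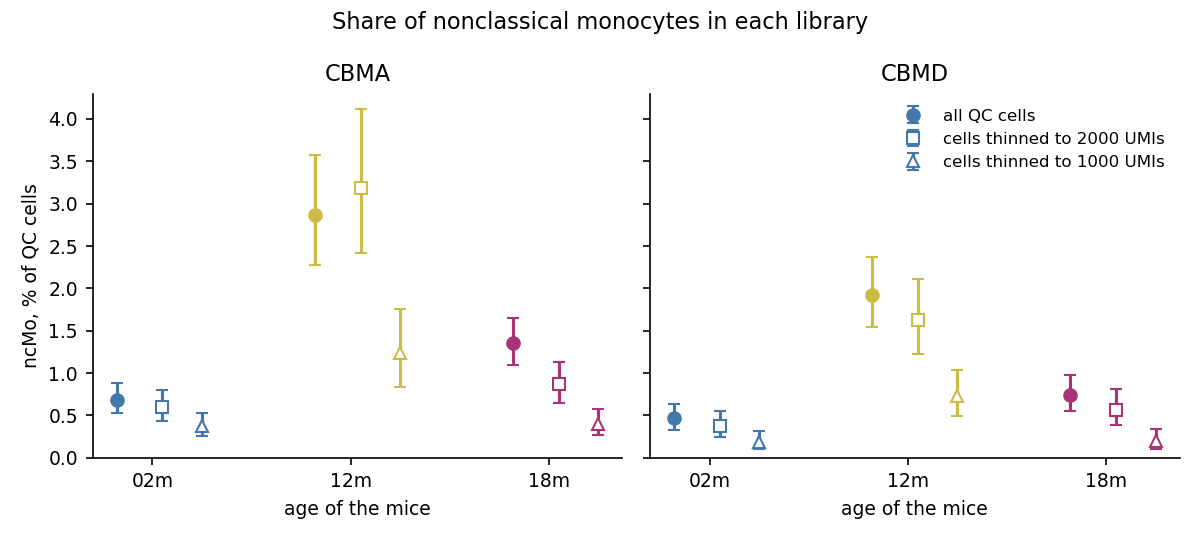
Share of ncMo among QC cells in % for the 3 ages in CBMA (left) and CBMD (right), with exact binomial 95% intervals that cover counting error only. Filled circles use every cell as deposited and open symbols cells thinned to 2000 or 1000 UMIs, with cells under that depth left out. The 12m share is the highest in each series, while at 1000 UMIs 18m (0.404% and 0.198%) and 02m (0.376% and 0.191%) lie within each other's intervals.

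Many genes differed in level between the ages. At 18m against 02m, 24.2% of 2538 measured genes were at least 1.5-fold higher and 11.9% lower in CBMA, and 27.4% and 17.9% of 1487 genes in CBMD. At 12m against 02m, 27.6% of 1941 genes were higher and 7.21% lower in CBMA, and 36.4% and 12.2% of 2133 genes in CBMD. At 18m against 12m, 7.14% of 2983 genes were higher and 14.6% lower in CBMA, and 5.92% and 17.3% of 2415 genes in CBMD. The 3 contrasts of a site share libraries. Higher genes made up 67.0%, 79.3% and 32.9% of those apart in CBMA and 60.5%, 74.8% and 25.5% in CBMD (18m over 02m, 12m over 02m, 18m over 12m), but with median-of-ratios size factors 53.9%, 49.0% and 56.3% in CBMA, with 51.3%, 63.0% and 34.0% in CBMD. The percentages called are the background for every list. The median log2 ratio of all measured genes was itself off 0. It was 0.14 in CBMA and 0.11 in CBMD for 18m over 02m, and 0.25 and 0.29 for 12m over 02m. For 18m over 12m it was -0.15 and -0.14. List medians are given with this shift removed unless stated otherwise. Of the genes measured in both sites, 176 of 1473 were higher and 95 lower in both at 18m against 02m, and 212 of 1742 higher and 61 lower at 12m against 02m.

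**Figure D3:**
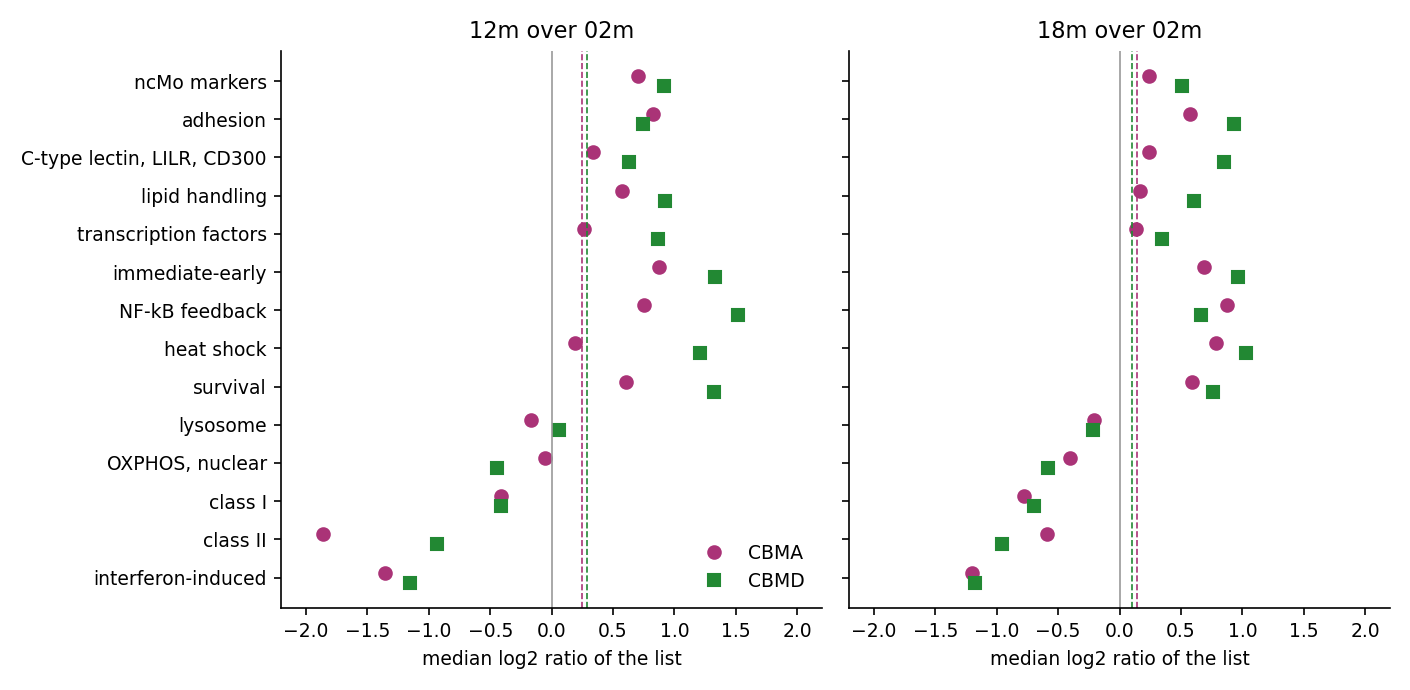
Median log2 ratio over the measured genes of 14 lists in ncMo, for 12m over 02m (left) and 18m over 02m (right), with circles for CBMA, squares for CBMD and dashed lines at the median of all measured genes in each site. The shift of all genes is not removed here. The interferon-induced list lies lowest at 18m (-1.20 and -1.18), and the immediate-early list lies above the dashed lines in all 4 comparisons (0.69 to 1.33).

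Interferon-induced genes were lower at both older ages in both sites. Type I interferons act on promoters with an interferon-stimulated response element (ISRE), and Irf7 feeds the response forward. Of 41 listed genes, 15 of 20 measured were at least 1.5-fold lower and 1 higher at 18m against 02m in CBMA, and 9 of 13 lower and 1 higher in CBMD. At 12m against 02m, 12 of 18 were lower and 1 higher in CBMA, and 10 of 15 lower and 1 higher in CBMD. Of all measured genes, 11.9% (CBMA) and 17.9% (CBMD) were lower at 18m, and 7.21% and 12.2% at 12m. The medians, relative to all measured genes, were -1.34 and -1.28 log2 at 18m and -1.61 and -1.44 at 12m. Without the 12m cells that had an Xist UMI, the median log2 ratio of 12m over 02m, before that shift was removed, was -1.47 in CBMA (-1.36 with all cells) and -1.06 in CBMD (-1.15 with all cells).

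Ifi27l2a, a small interferon-induced membrane protein, had 5358, 894 and 766 CPM at 02m, 12m and 18m of CBMA, and 4193, 939 and 557 CPM in CBMD. Both 02m libraries were thus above all 4 older ones, and 18m over 02m was 0.143 (0.128 to 0.160) in CBMA and 0.133 (0.111 to 0.158) in CBMD. Irf7 had 592, 55.1 and 65.8 CPM in CBMA, with 311, 75.8 and 71.9 CPM in CBMD, a ratio of 18m over 02m of 0.111 (0.0747 to 0.162) and 0.231 (0.132 to 0.387). Ifitm3, which restricts virus entry, had 4851, 2397 and 2229 CPM in CBMA, with 4973, 2472 and 1743 CPM in CBMD. The antiviral tether Bst2 had 314, 76.5 and 95.9 CPM in CBMA, with 277, 73.5 and 50.3 CPM in CBMD. The ubiquitin-like Isg15 had 165, 27.6 and 24.5 CPM in CBMA, with 153, 68.7 and 7.19 CPM in CBMD, the last from 2 UMIs, too few for a call at 18m in that site.

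Oasl2, an oligoadenylate synthetase-like protein, and Zbp1, a sensor of Z-form nucleic acid, were lower as well, with ratios of 18m over 02m of 0.174 and 0.142 for Oasl2 and 0.341 and 0.375 for Zbp1 in CBMA and CBMD. Ifit3 was at 0.0610 (0.0213 to 0.143) in CBMA, and in CBMD it fell short of 50 UMIs, with 2 UMIs at 18m and 17 at 02m. Not every gene of the list moved this way. Irf1, which also responds to other signals, had 76.5, 159 and 173 CPM in CBMA, with 84.0, 209 and 180 CPM in CBMD, and was the 1 gene higher in each comparison. Ly6e had 2753, 2336 and 1676 CPM in CBMA, with 1877, 1707 and 1416 CPM in CBMD, with a ratio of 18m over 02m of 0.609 (0.550 to 0.673) and 0.755 (0.654 to 0.871).

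The lower level was spread over the cells. The median share of a cell's UMIs from the list was 1.67%, 0.665% and 0.517% at 02m, 12m and 18m of CBMA, with 1.41%, 0.562% and 0.415% in CBMD. The lower quartile at 02m (1.26% in CBMA, 1.10% in CBMD) lay above the upper quartile at 12m (0.957% and 0.766%) and at 18m (0.728% and 0.564%). Among members without a Ly6c2 UMI, Ifi27l2a had 4998, 845 and 606 CPM in CBMA, with 3903, 893 and 458 CPM in CBMD. Among members with all 3 markers it had 3483, 865 and 336 CPM in CBMA, with 3006, 606 and 93.6 CPM in CBMD, from 5 UMIs in the last. The same order held in cMo, where Ifi27l2a had 5672, 1489 and 1098 CPM in CBMA, with 5313, 1330 and 818 CPM in CBMD.

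To show the sequence that such genes share, promoters of 4 members that were at least 1.5-fold lower in 1 or more comparisons are printed, 250 bases before to 50 after the start of transcription, from RefSeq on GRCm38.p6. Capitals mark each match, on either strand, to GAAA followed by any 2 bases and GAAA, the core of an ISRE, and overlapping matches (Bst2, Isg15) run together.
Ifitm3 (chr7:141010695-141010994, minus strand): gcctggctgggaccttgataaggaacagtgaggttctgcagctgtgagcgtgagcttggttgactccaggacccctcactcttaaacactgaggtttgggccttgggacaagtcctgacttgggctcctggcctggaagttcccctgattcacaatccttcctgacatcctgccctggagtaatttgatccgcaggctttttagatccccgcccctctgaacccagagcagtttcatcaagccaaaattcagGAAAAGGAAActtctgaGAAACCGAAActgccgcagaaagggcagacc
Bst2 (chr8:71537423-71537722, minus strand): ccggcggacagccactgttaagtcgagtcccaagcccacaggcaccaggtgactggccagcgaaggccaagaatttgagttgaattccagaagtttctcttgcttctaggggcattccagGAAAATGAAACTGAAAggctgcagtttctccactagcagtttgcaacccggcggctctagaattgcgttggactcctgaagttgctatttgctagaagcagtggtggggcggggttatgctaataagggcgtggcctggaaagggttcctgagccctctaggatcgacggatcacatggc
Isg15 (chr4:156200769-156201068, minus strand): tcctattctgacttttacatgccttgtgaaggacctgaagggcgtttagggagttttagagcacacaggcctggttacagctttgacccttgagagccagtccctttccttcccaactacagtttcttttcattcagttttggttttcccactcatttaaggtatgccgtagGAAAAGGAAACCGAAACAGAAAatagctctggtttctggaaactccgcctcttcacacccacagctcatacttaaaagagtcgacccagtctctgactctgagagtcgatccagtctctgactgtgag
Ifit3 (chr19:34583279-34583578, plus strand): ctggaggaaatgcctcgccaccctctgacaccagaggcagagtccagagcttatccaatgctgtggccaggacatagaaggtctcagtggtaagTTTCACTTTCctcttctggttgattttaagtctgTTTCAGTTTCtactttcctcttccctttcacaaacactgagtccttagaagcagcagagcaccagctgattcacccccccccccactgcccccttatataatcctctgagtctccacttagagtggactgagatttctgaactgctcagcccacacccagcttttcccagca

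Of the 31 listed genes with a promoter entry, 19 held such a match (61.3%), against 3.99% of 27025 genes. Irf7 and Oasl2 had entries without these letters, while Ifi27l2a, Zbp1, Ly6e and 7 others had none to search. The list was drawn up from genes known to answer interferon, so the share describes the list and not the ncMo.

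Class I antigen presentation was lower at 18m. Class I molecules show peptides of a cell's own proteins to CD8 T cells. At 18m against 02m, 11 of 13 measured class I genes were at least 1.5-fold lower and 0 higher in CBMA, and 6 of 11 lower and 0 higher in CBMD. The backgrounds were 11.9% and 17.9% lower, and the medians relative to all genes were -0.92 and -0.80 log2. The class I light chain B2m had 5503, 4476 and 3418 CPM in CBMA, with 3501, 4520 and 2972 CPM in CBMD, so its 12m level in CBMD was the highest of that site. The heavy chain H2-D1 had 4086, 3077 and 2421 CPM in CBMA, with 3081, 2982 and 2088 CPM in CBMD, and H2-K1 had 2584, 2581 and 1507 CPM and 1970, 2138 and 1337 CPM. The class Ib gene H2-Q7 had ratios of 18m over 02m of 0.361 (0.254 to 0.510) and 0.357 (0.219 to 0.571). At 12m against 02m, 3 of 13 genes were lower and 1 higher in CBMA, and 4 of 14 lower and 1 higher in CBMD. The backgrounds there were 7.21% and 12.2% lower, and 27.6% and 36.4% higher. The medians of 12m over 02m relative to all genes were -0.66 and -0.70 log2. Before that shift was removed, both were -0.41 with all cells. Without the 12m cells that had an Xist UMI, these unshifted medians were -0.56 in CBMA and -0.03 in CBMD.

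Class II genes, whose products show engulfed peptides to CD4 T cells, were lower in the sums, but few cells set those sums. Of the measured class II genes, 4 of 6 (CBMA) and 4 of 5 (CBMD) had an 18m level under that of 02m by 1.5-fold or more, with none higher. Of all measured genes, 11.9% (CBMA) and 17.9% (CBMD) were lower. H2-Aa had 1594, 438 and 1057 CPM in CBMA, with 1714, 898 and 880 CPM in CBMD. The 5 cells with the most class II UMIs held 87.0%, 71.8% and 65.1% of them at 02m, 12m and 18m of CBMA, with 83.3%, 68.0% and 82.8% in CBMD. The median cell went the other way, with 0.032%, 0.061% and 0.057% of its UMIs from class II genes in CBMA and 0.056%, 0.070% and 0.083% in CBMD. The libraries had medians of 4052.5 to 5079 UMIs per ncMo, so these shares are very few UMIs per cell, near the floor. In all, 39 members had at least 1% class II UMIs, and 13 of them (33.3%) carried a UMI of a dendritic cell marker, against 24 of the other 368 (6.52%). Without these 39 cells the class II level was 915, 961 and 1083 CPM in CBMA, with 1070, 1522 and 1240 CPM in CBMD. What the 39 cells are was not tested.

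**Figure D4:**
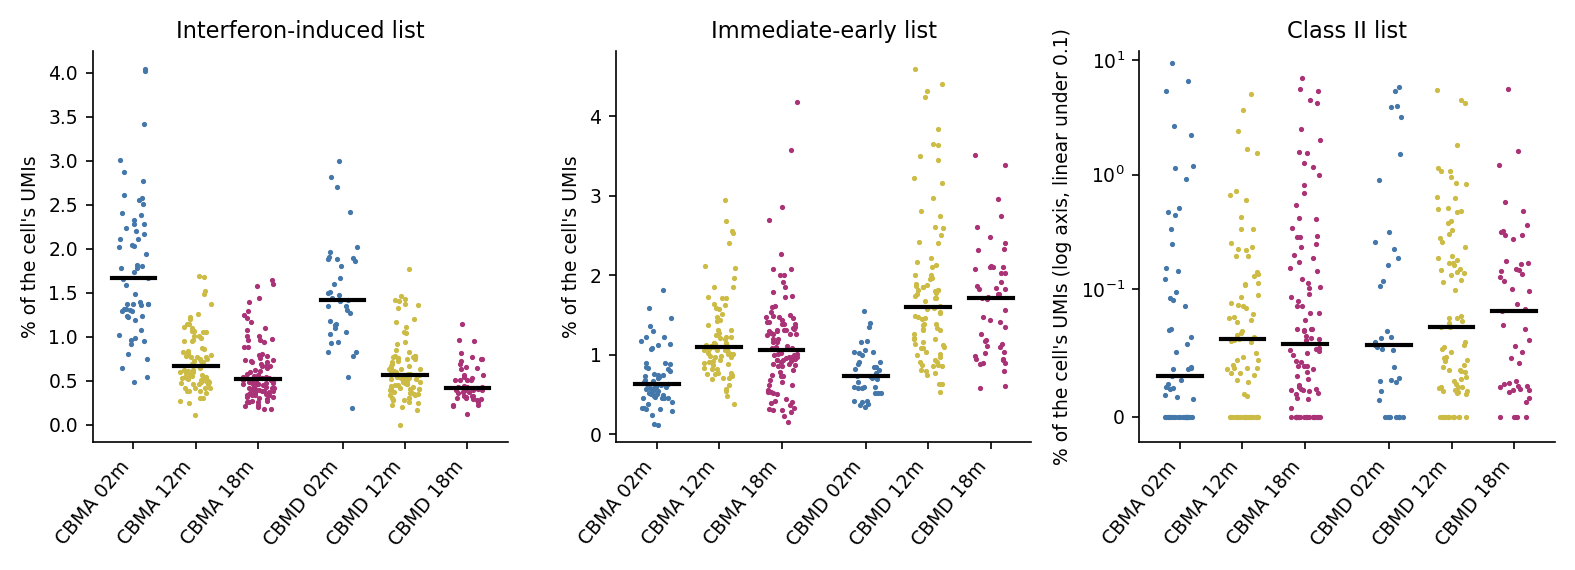
Share of each cell's UMIs from 3 gene lists in the 407 ncMo, in % (linear axes for the interferon-induced and immediate-early lists, log axis above 0.1% for class II), with 1 dot per cell and a bar at the median of each library. The interferon-induced medians are 1.67% and 1.41% at 02m and at most 0.665% later, the immediate-early medians are 0.631% and 0.730% at 02m and at least 1.06% later, and the class II medians stay under 0.1% below a few high cells.

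Immediate-early genes were higher at both older ages. These genes are transcribed within minutes of a stimulus, and Nr4a1 among them also maintains the ncMo fate. Of 21 listed genes, 11 of 18 measured were at least 1.5-fold higher at 18m against 02m in CBMA and 14 of 18 in CBMD, and none was lower. At 12m against 02m, 10 of 17 were higher in CBMA and 15 of 19 in CBMD, again with none lower. Of all measured genes, 24.2% (CBMA) and 27.4% (CBMD) were higher at 18m, and 27.6% and 36.4% at 12m. The medians relative to all genes were 0.54 and 0.86 log2 at 18m and 0.63 and 1.05 at 12m. Before that shift was removed, the 12m medians were 0.87 and 1.33 with all cells, against 0.86 and 1.26 without the cells that had an Xist UMI.

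The stress-induced factor Atf3 had 68.4, 346 and 638 CPM in CBMA, with 207, 1614 and 1085 CPM in CBMD. Its ratio of 18m over 02m was 9.32 (5.73 to 16.2) and 5.23 (3.78 to 7.41). Fos, a partner in the AP-1 factor, had 322, 836 and 909 CPM in CBMA, with 316, 882 and 1254 CPM in CBMD, and Jun, the other partner, had 946, 1277 and 1471 CPM and 1269, 1552 and 2145 CPM. The phosphatase Dusp1, which switches off MAP kinases, had 318, 1289 and 798 CPM in CBMA, with 252, 1744 and 1337 CPM in CBMD. For each of these genes the 02m library was the lowest of its site.

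Nr4a1 had 451, 827 and 743 CPM in CBMA, with 415, 2069 and 801 CPM in CBMD, and its relative Nr4a2 had ratios of 18m over 02m of 5.89 (2.39 to 18.8) and 4.21 (2.37 to 8.04). Fosb (4.12 and 5.51) and Klf6 (1.91 and 5.88) were higher at 18m in the same way. The cMo shared the direction, since Atf3 had 30.6, 109 and 314 CPM in cMo of CBMA and 99.6, 725 and 356 CPM in cMo of CBMD. Over the cells, the median share of immediate-early UMIs was 0.631%, 1.10% and 1.06% at 02m, 12m and 18m of CBMA, with 0.730%, 1.60% and 1.72% in CBMD.

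Only 2 of 17 immediate-early genes with a promoter entry held TGACGTCA, the cAMP response element (CRE) bound by CREB, against 2.03% of all 27025 genes. They were Dusp1 and Btg2, which restrains cell division, and the Dusp1 promoter, the one of the 2 with the larger ratio, is printed with the match in capitals (both strands searched, RefSeq on GRCm38.p6).
Dusp1 (chr17:26508423-26508722, minus strand): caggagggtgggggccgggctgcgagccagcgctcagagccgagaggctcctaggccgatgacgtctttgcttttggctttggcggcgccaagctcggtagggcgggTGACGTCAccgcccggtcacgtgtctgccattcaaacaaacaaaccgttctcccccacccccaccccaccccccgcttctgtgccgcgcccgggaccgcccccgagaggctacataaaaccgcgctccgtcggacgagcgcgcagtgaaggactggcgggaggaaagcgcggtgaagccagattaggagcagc

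Negative regulators of NF-kB and heat shock genes were also among the higher genes. Tnfaip3, the ubiquitin-editing enzyme A20 that limits NF-kB signals, had ratios of 18m over 02m of 6.89 (2.55 to 26.1) and 7.57 (3.04 to 24.3), though from 4 and 5 UMIs at 02m. Nfkbia, the NF-kB inhibitor, had 1.84 (1.41 to 2.41) and 1.63 (1.25 to 2.13). Over all genes measured, 24.2% were higher and 11.9% lower at 18m against 02m in CBMA, and 27.4% and 17.9% in CBMD. Of 15 listed NF-kB feedback genes, 5 of 9 measured were higher and 1 lower at 18m in CBMA, and 5 of 8 higher and 2 lower in CBMD. Of 10 heat shock genes, 5 of 7 measured were higher at 18m in CBMA and 5 of 8 in CBMD, with none lower. The inducible chaperone Hspa1a had 56.4, 107 and 305 CPM in CBMA, with 109, 870 and 1215 CPM in CBMD. Its twin Hspa1b had 68.4, 91.8 and 378 CPM in CBMA, with 114, 1292 and 848 CPM in CBMD. The 2 genes are near-identical, so reads could be split between them. The cytosolic chaperone Hsp90aa1 had ratios of 18m over 02m of 2.29 (1.75 to 3.02) and 3.17 (2.40 to 4.23). The cytokine Il1b was higher too, at 2.55 (1.71 to 3.93) and 6.76 (3.89 to 12.7). Nfil3 (4.10 and 3.88) and Usp9x (3.91 and 3.91) completed the genes highest in both sites outside these lists, beside the immunoglobulin Igkc and mt-Nd3.

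Several adhesion genes were higher at both older ages, the LFA-1 chains among them. Patrolling rests on LFA-1, the pair of Itgal and Itgb2, which holds the cells to endothelium. Of 17 listed genes, 6 of 13 measured were higher and 2 lower at 18m against 02m in CBMA, and 9 of 13 higher and 0 lower in CBMD. The backgrounds were 24.2% and 27.4% higher, and 11.9% and 17.9% lower. For 12m over 02m, 7 of 12 were higher and 1 lower in CBMA, and 7 of 12 higher and 0 lower in CBMD. The backgrounds there were 27.6% and 36.4% higher, and 7.21% and 12.2% lower. Itgal had 471, 1068 and 762 CPM in CBMA, with 207, 773 and 640 CPM in CBMD, and Itgb2 had 370, 793 and 762 CPM and 257, 692 and 557 CPM. Their ratios of 18m over 02m were 1.62 (1.31 to 2.00) and 3.08 (2.19 to 4.43) for Itgal, and 2.06 (1.64 to 2.61) and 2.17 (1.58 to 3.03) for Itgb2. The hyaluronan receptor Cd44 had 221, 545 and 581 CPM in CBMA, with 193, 635 and 715 CPM in CBMD. Among chemokine receptors, Cxcr4, which retains cells in marrow, was 2.32-fold (1.60 to 3.46) and 2.22-fold (1.55 to 3.22) higher at 18m than at 02m. Cx3cr1 was 1.46-fold (1.19 to 1.81) and 1.36-fold (1.03 to 1.80) higher, under the 1.5-fold limit.

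Surface receptors and lipid genes changed gene by gene. Cd36 had 101, 432 and 376 CPM in CBMA, with 88.9, 533 and 604 CPM in CBMD, and its ratio of 18m over 02m was 3.74 (2.46 to 5.92) and 6.79 (4.17 to 11.7). Among members without a Ly6c2 UMI it had 117, 416 and 454 CPM in CBMA, with 65.1, 571 and 633 CPM in CBMD. Apoe, a carrier of cholesterol, had 4283, 5045 and 5002 CPM in CBMA, with 2484, 4172 and 3953 CPM in CBMD. Pparg had ratios of 18m over 02m of 1.12 (0.693 to 1.87) and 1.41 (0.730 to 2.82), and Fabp4 of 0.835 (0.652 to 1.07) and 1.03 (0.702 to 1.52), so neither was apart beyond counting error. The phagocytic brake Sirpa (1.43 and 2.46), the receptor Cd300ld (1.39 and 3.32) and the fungal glucan receptor Clec7a (1.78 and 2.17) were higher at 18m in both sites beyond counting error. Sirpa and Cd300ld were under the 1.5-fold limit in CBMA. Of their list of 18 lectin, LILR and CD300 genes, 4 of 15 measured were higher in CBMA, near the background of 24.2%. In CBMD 7 of 13 were higher (background 27.4%), and none was lower in either site. The Fc receptor signalling chain Fcer1g was lower, at 0.659 (0.597 to 0.729) and 0.563 (0.495 to 0.639), as was Fcgr1, the high-affinity Fc receptor, at 0.381 (0.229 to 0.629) in CBMA, while in CBMD its 4 UMIs at 18m and 17 at 02m were too few for a call.

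Cebpb, Pou2f2 and Klf2, among the regulators of the ncMo state, had their highest levels at 12m in each site. Cebpb, which acts upstream of Nr4a1 in these cells, had 1196, 1497 and 1155 CPM in CBMA, with 904, 1645 and 1146 CPM in CBMD. Pou2f2 had 708, 1084 and 777 CPM in CBMA, with 479, 903 and 762 CPM in CBMD, and Klf2 had 491, 836 and 634 CPM and 365, 1294 and 704 CPM. This order held without the 12m cells that had an Xist UMI. Of 18 listed transcription factors, 5 of 17 measured were higher and 1 lower at 18m against 02m in CBMA, and 4 of 13 higher and 1 lower in CBMD, shares near the background of 24.2% and 27.4%. For 12m over 02m, 6 of 15 were higher and 1 lower in CBMA, and 8 of 15 higher and 1 lower in CBMD, against backgrounds of 27.6% and 36.4% higher. The 1 lower factor was Id2 in each comparison, with 18m over 02m at 0.542 (0.393 to 0.748) and 0.467 (0.311 to 0.695). Over the ncMo marker list, 6 of 19 were higher and 2 lower at 18m in CBMA, and 8 of 17 higher and 2 lower in CBMD. The backgrounds were 24.2% and 27.4% higher, and 11.9% and 17.9% lower. The list medians relative to all genes were 0.10 and 0.40 log2, so the list in CBMA was near its background. At 12m against 02m, 12 of 20 were higher and 0 lower in CBMA, and 13 of 21 higher and 1 lower in CBMD. The backgrounds were 27.6% and 36.4% higher, and 7.21% and 12.2% lower.

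Of the label's markers, Adgre4 was 1.71-fold (1.29 to 2.28) and 1.83-fold (1.24 to 2.75) higher at 18m than at 02m. The rule's own genes, given as a description, had 648, 726 and 508 CPM for Ace, 113, 162 and 186 CPM for Cd300e (whose ratio of 18m over 02m was 0.710 among members with all 3 markers) and 958, 921 and 606 CPM for Ear2 over the ages of CBMA. In CBMD they had 464, 623 and 553 CPM for Ace, 88.9, 197 and 169 CPM for Cd300e and 568, 664 and 449 CPM for Ear2.

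Genes of the classical state ran both ways. Chil3, a chitinase-like protein of cMo and neutrophils, had 1389, 349 and 211 CPM in CBMA, with 958, 379 and 248 CPM in CBMD. In cMo of the same libraries it had 2007, 3277 and 1755 CPM in CBMA, with 1487, 2700 and 1759 CPM in CBMD, with no such order. Its level in ncMo depended on how the cells were drawn, because among members with all 3 markers it had 223, 272 and 55.9 CPM in CBMA, with 183, 217 and 37.4 CPM in CBMD, from 2 to 34 UMIs a library. Plac8 had 3104, 1032 and 1512 CPM in CBMA, with 3447, 1320 and 1484 CPM in CBMD. At 18m against 12m the cMo markers were higher, 6 of 12 measured and 1 lower in each site, against backgrounds of 7.14% and 5.92% higher. F13a1 was 6.14-fold (3.39 to 12.2) and 3.03-fold (2.01 to 4.66) higher, Fn1 3.22-fold (2.30 to 4.62) and 2.23-fold (1.62 to 3.08), and Ccr2 2.12-fold (1.76 to 2.58) and 1.60-fold (1.29 to 1.98). Without the 12m cells that had an Xist UMI the ratios of 18m over 12m were 7.26 and 20.3 for F13a1, 4.88 and 5.64 for Fn1, and 3.45 and 2.12 for Ccr2. Among members with all 3 markers, Ccr2 had 56, 256 and 205 CPM in CBMA, with 157, 92.3 and 93.6 CPM in CBMD, and Fn1 had at most 9 UMIs in any library.

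**Figure D5:**
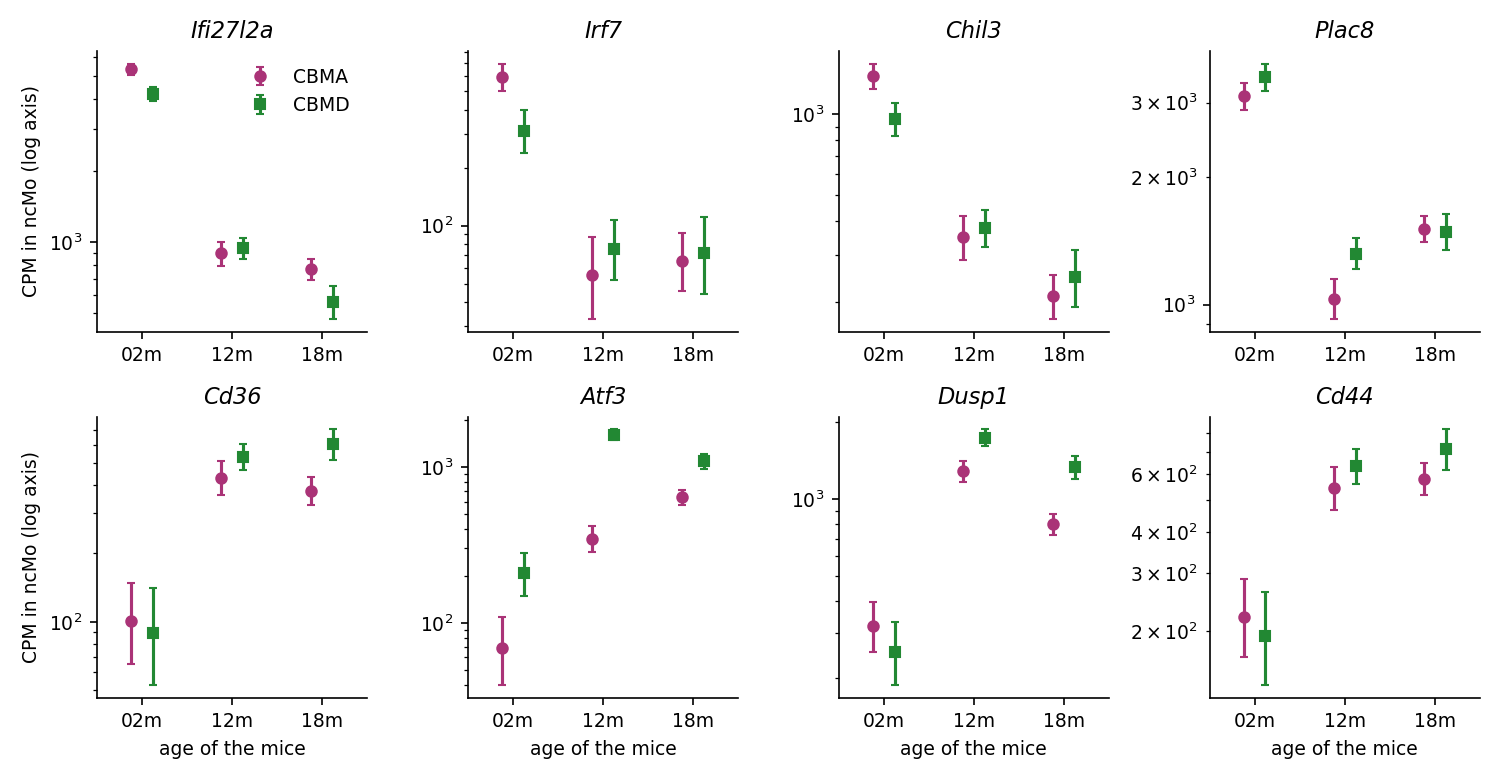
Level in ncMo in CPM (log axes) of 8 genes at 02m, 12m and 18m, with circles for CBMA, squares for CBMD and exact Poisson 95% intervals that cover counting error only. Ifi27l2a, Irf7, Chil3 and Plac8 are highest at 02m in both sites, and Cd36, Atf3, Dusp1 and Cd44 are lowest there.

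Some transcripts followed single cells or libraries. Stromal genes had the most extreme ratios, but 2 cells carried them, a cell of CBMA_18m with 641 stromal UMIs of 18495 and no Ptprc UMI, and a cell of CBMD_02m with 1224 stromal UMIs of 14079, which was also called a doublet. In all, 9 of the 407 members were called doublets. Neutrophil granule transcripts were higher at 12m, with Camp at 3.28 (2.36 to 4.64) and 4.46 (2.04 to 11.5) and Ngp at 3.59 (1.99 to 6.91) and 12.7 (3.35 to 108) for 12m over 02m, and without the 12m cells that had an Xist UMI at 4.35 and 4.24 (Camp) and 3.86 and 16.1 (Ngp). The summed level of 12 neutrophil markers in ncMo was 1901 to 5385 CPM, and that of 8 B cell markers was 326 to 2660 CPM, highest in CBMA_12m. Their part in the results was not tested. The linker histone Hist1h1e was lower at 18m than at 02m, at 0.0436 (0.0212 to 0.0808) in CBMA and 0.283 (0.141 to 0.538) in CBMD.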

How the data were processed

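Marrow cells were captured as 6 10x 3' libraries. Per the file headers and the submitters' processing notes, the authors used Cell Ranger 5.0.1 and the GRCm38 build, and the deposited matrices hold raw UMI counts per gene and called barcode, with no normalization. The annotation release was not given in the sources used here, and all 55450 gene IDs matched GENCODE vM21.

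Library totals were 16031737 to 66264495 UMIs. The study's quality limits (500 to 5000 genes, over 500 UMIs, under 25% mitochondrial) left 37576 of 43420 barcodes, more cells than the study states for the same limits, so shares here have another denominator. To these the rule for ncMo was applied. UMIs were summed per library and scaled to CPM (Python 3.11.15, numpy 2.4.6, scipy 1.17.1, pandas 2.3.3). Ratios carry exact conditional Poisson intervals and shares Clopper-Pearson intervals, both at 95% and for counting error only. Doublets were scored with Scrublet in scanpy 1.11.5. Its own threshold marked 196 of 37576 cells, so the highest scores were taken instead, 2393 cells in all, and kept in the main results. The interval and calls were tested on simulated independent Poisson counts without cells, a check of the code that does not cover UMIs held by few cells.

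The members and lists were chosen with earlier results of these data known. Genes named in the text are those of the rule and label, list members, and the genes furthest apart in both sites or in 1 site (at least 50 UMIs, interval leaving out 1). Others were chosen after their values were seen, among them Cd44, Cxcr4, Sirpa, Cd300ld and Clec7a where not among the most abundant 4 of their list. Alternatives varied depth, doublets, the rule's limits, scaling, count minimum, fold, cell weighting and the 12m cells with Xist.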

Additional observations from a re-analysis of the deposited data

Results flagged for a closer look

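Each of these genes had ratios on opposite sides of 1 in CBMA and CBMD with intervals that left out 1, and the difference between the sites was not tested. Fn1 was at 1.95 (1.07 to 3.72) in CBMA and 0.518 (0.362 to 0.742) in CBMD for 12m over 02m. The chemokine Cxcl2 was at 0.322 (0.186 to 0.539) in CBMA and 1.91 (1.32 to 2.81) in CBMD for 12m over 02m. The CBMA ratio of Cxcl2 turned to 1.44 with all 3 markers and 1.94 with S100 genes under 0.5% of UMIs, and 1 cell held 73.1% of its UMIs in CBMA_02m. The survival factor Bcl2 was at 0.386 (0.199 to 0.741) in CBMA and 2.34 (1.08 to 5.63) in CBMD for 18m over 02m, from 19 and 23 UMIs in CBMA and 29 and 9 UMIs in CBMD, under the 50 UMIs needed for a call. For 18m over 12m, Tnfaip3 was at 1.91 (1.12 to 3.39) in CBMA and 0.533 (0.381 to 0.735) in CBMD, Hspa1b at 4.12 (2.80 to 6.26) and 0.657 (0.561 to 0.766), and Nfil3 at 1.94 (1.22 to 3.18) and 0.587 (0.412 to 0.825). In CBMD the ratios of Hspa1b and Nfil3 turned to 1.08 and 1.42 with all 3 markers, and that of Hspa1b to 1.26 without the 12m cells that had an Xist UMI.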

How the results depend on the processing

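No paired analysis was possible because each age and site was 1 library, and none could be left out. The share of 18m over 02m in CBMA was 1.07 with cells thinned to 1000 UMIs, 4.34 over ncMo plus cMo and 3.88 with all 3 markers required, and in CBMD 2.83 over ncMo plus cMo, 3.12 with all 3 markers and 3.11 with no Ly6c2 UMI. The share of 12m over 02m was 9.35 and 10.4 over ncMo plus cMo, and 8.04 and 9.62 with all 3 markers (CBMA, CBMD), 2.32 in CBMA without Xist cells and 7.44 in CBMD with no Ly6c2 UMI. The share of 18m over 12m was 0.273 and 0.328 in CBMA at 2000 and 1000 UMIs, and 0.850 in CBMA and 0.562 in CBMD without Xist cells. The other 36 share ratios stayed within the interval of the main ratio, but for 18m over 02m the intervals at 2000 UMIs in both sites, and at 1000 UMIs and with no S100 limit in CBMD, held 1.

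The main counts of genes apart were 918, 676 and 648 in CBMA, with 674, 1037 and 561 in CBMD (18m over 02m, 12m over 02m, 18m over 12m). In that order they numbered 2175, 1937 and 1777 in CBMA with 1779, 2415 and 1676 in CBMD from 20 UMIs, 404, 269 and 260 with 315, 422 and 215 from 100 UMIs, 331, 252 and 186 with 276, 522 and 152 at 2-fold, and 208, 144 and 212 with 156, 325 and 249 with all 3 markers. With both sums thinned to the smaller total there were 549 (18m over 02m, CBMA) and 558 (12m over 02m, CBMD). Without Xist cells there were 423 in CBMA and 501 in CBMD for 12m over 02m, and 352 in CBMD for 18m over 12m.

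List medians here are log2 ratios before the shift of all genes was removed. For 12m over 02m in CBMA the main class II median was -1.86, with -1.28 under equal cell weights and -3.26 without Xist cells. For 12m over 02m in CBMD it was -0.93, with -1.28 under equal weights and -1.66 with all 3 markers. For 18m over 02m in CBMD it was -0.96, with -1.54 under equal weights. The main immediate-early median in CBMD was 0.96 for 18m over 02m, with 1.37 when all 3 markers were required. For 12m over 02m it was 1.33, with 1.64 for all 3 markers and 1.02 under equal weights.

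With all 3 markers required, ratios changed side for Cd300e (0.710) and Fn1 (0.892) at 18m over 02m in CBMA, Ccr2 at 18m over 02m in CBMD (0.596), Chil3 at 12m over 02m (1.22 in CBMA, 1.19 in CBMD), Cxcl2 at 12m over 02m in CBMA (1.44), Ccr2 (0.80), Fn1 (0.345) and H2-Eb1 (0.194) at 18m over 12m in CBMA, and Hspa1b (1.08) and Nfil3 (1.42) at 18m over 12m in CBMD. Hspa1b there was 1.26 without Xist cells, and Cxcl2 was 1.94 with S100 genes under 0.5% of UMIs. The cause was not tested, though all 3 markers left 120 cells. Leaving out stromal-rich or class II high cells and levels by Ly6c2 or all 3 markers were chosen after seeing the data.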

Other observations

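Among the cytokine list, Ccl5 in CBMD_12m came almost wholly from 1 cell, which held 92% of its UMIs, and 1 cell held 73% of the Cxcl2 UMIs in CBMA_02m. Of the respiratory chain genes encoded in the nucleus, 5 of 29 measured were lower by 1.5-fold or more at 18m against 02m and 0 higher in CBMA (11.9% of all genes were lower), with 13 of 27 lower and 1 higher in CBMD (17.9% of all genes lower). Lysosomal genes were close to level, with 2 of 17 lower and 2 higher in CBMA and 2 lower and 0 higher in CBMD.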
